A study of Homo sapiens with 6 samples.

Results

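The 199 genes described here are the numbered zinc finger genes of human chromosome 19. A gene belonged to the set when it was protein-coding, its symbol was ZNF followed by a number with an optional letter, it lay on chromosome 19 of GRCh38, and it had at least 10 counts in 3 or more of the 6 libraries. Of 247 protein-coding genes with such a symbol on the chromosome, 199 met the count rule and 48 did not, out of 63140 genes in the table. The cells were HEK293T, a line derived from human embryonic kidney that carries adenoviral and SV40 transforming genes. One group of 3 cultures received a duplex of the microRNA miR-34a, and the control group of 3 received Qiagen's AllStars negative control, called an siRNA in the sample labels and a miRNA in the series text. Total RNA was taken 18 h later, and the submitters call the cultures biological replicates. Nothing else distinguished the groups in the labels, all libraries came from 1 cell line, and no untransfected cells are part of the data described here.

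C2H2 zinc finger proteins bind DNA through tandem fingers, each a short loop folded around a zinc ion that a pair of cysteines and a pair of histidines hold. Many of the chromosome 19 genes also encode a KRAB domain, which binds the corepressor TRIM28. TRIM28 in turn brings the histone methyltransferase SETDB1, HP1 proteins and the NuRD deacetylase complex to DNA, and many of these genes are known for silencing retrotransposons. The family grew by tandem duplication, so neighbours on the chromosome often have similar coding sequences.

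One finger from each of 4 genes shows the unit that all of them repeat and how far it has drifted between them. Each line is the first finger of the predicted protein with a spacing of 12 residues between the second cysteine and the first histidine, read from GENCODE release 29 transcripts (GRCh38), with the codons of the cysteines and histidines in capitals.
ZNF254: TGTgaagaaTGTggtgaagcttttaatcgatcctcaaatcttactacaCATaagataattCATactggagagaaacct
ZNF675: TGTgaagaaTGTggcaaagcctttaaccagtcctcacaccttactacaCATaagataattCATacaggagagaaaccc
ZNF570: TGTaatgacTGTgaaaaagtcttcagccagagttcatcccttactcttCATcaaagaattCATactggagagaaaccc
ZNF580: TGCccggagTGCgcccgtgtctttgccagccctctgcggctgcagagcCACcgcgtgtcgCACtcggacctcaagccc
They lie at chr19:24126802-24126879 (plus strand), chr19:23654084-23654161 (minus), chr19:37484280-37484357 (plus) and chr19:55642788-55642865 (plus). The fingers of ZNF254 and ZNF675, which stand in the same cluster, matched at 68 of 78 bases. Those of ZNF254 and ZNF570 matched at 52, and those of ZNF254 and ZNF580 at 27. The unit of ZNF580 is rich in G and C where the others are rich in A and T. ZNF580 encodes 3 finger matches and no KRAB box match, while the other 3 genes encode 11 to 13 and a KRAB box.

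The library totals ranged from 24728662 to 36650331 counts, and the member genes took 0.233 to 0.259% of them. Of 9 genes typical of HEK293T cells, such as the neurofilament genes NEFM and NEFL, all stood at 1 CPM or more in every library. Their summed level ranged from 692 to 748 CPM with the control and from 622 to 646 CPM with miR-34a, and INA, NEFL and NEFM were called lower (edgeR adjusted p = 4.7e-05, 0.0041 and 0.037). Of 13 markers of other cell types, 3 reached 1 CPM in every library, CD3E and KRT14 were at 0 in all 6, and the sum over the 13 ranged from 25.7 to 31.9 CPM with the control and from 25.6 to 27.9 CPM with miR-34a. The part of these levels in the results was not tested. In bulk RNA, fewer cells that express a gene and less RNA per cell cannot be told apart.

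With miR-34a, 10 of the 199 zinc finger genes rose and 4 fell, and 185 did not pass (edgeR quasi-likelihood test, Benjamini-Hochberg adjusted p below 0.05 over 17427 genes). The shares were 5.03% higher and 2.01% lower, beside 5.38% and 6.7% over all genes tested. In total 7.04% of the members were called, beside 12.1% of all genes. The changes were small: the largest called rise was 1.44-fold, in ZNF264, and the largest called fall was to 0.663 of the control level, in ZNF580. Scaling by library size alone gave 11 higher and 2 lower. The counts turned on single libraries. Leaving out control replicate 1 gave 20 higher and 9 lower. Without control replicate 2 there were 4 and 1, and without control replicate 3 there were 3 and 1. Without miR-34a replicate 1 there were 10 and 2, without miR-34a replicate 2 there were 5 and 3, and without miR-34a replicate 3 there were 5 and 2.

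Most members lay slightly above 0. The median log2 fold change was 0.13, with quartiles of 0.02 and 0.27, and 153 of 199 members (76.9%) were positive. Over all genes tested the median was -0.004 and 49.3% were positive. The median over 230 numbered ZNF genes of other chromosomes was 0.07, with 20 called higher and 7 lower, and the median over 773 other protein-coding genes of chromosome 19 was -0.10, with 14 higher and 97 lower. For 42 members (21.1%) all 3 miR-34a libraries lay above all 3 control libraries, beside 13.1% of all genes, and for 10 members (5.03%) they lay below, beside 14.2%. These are descriptions, with no test of the set against other genes.

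**Figure D1:**
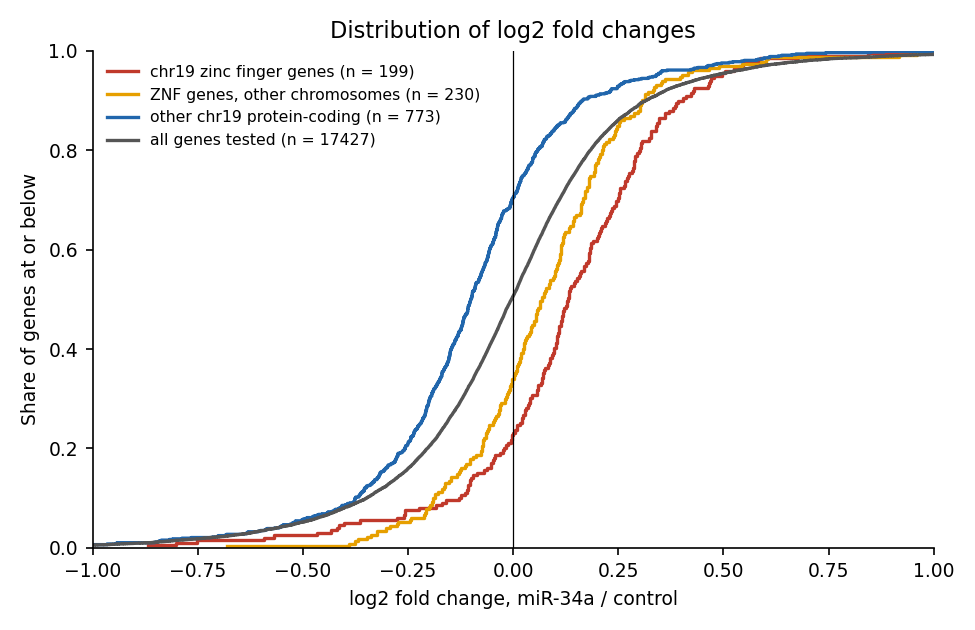
Cumulative share of genes (y axis) at or below each log2 fold change of miR-34a over control (x axis, drawn from -1 to 1) for 4 sets. The line of the 199 chromosome 19 zinc finger genes lies to the right, with a median of 0.13, and that of the other protein-coding genes of the chromosome to the left, with a median of -0.10.

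The members' median level was lower in each control library than in each miR-34a library. The median of the members' log2 CPM, each gene centred on its mean over the 6 libraries, was -0.02, -0.09 and -0.07 in control replicates 1, 2 and 3 and 0.04, 0.10 and 0.07 in miR-34a replicates 1, 2 and 3. The groups did not overlap, and control replicate 1 lay nearest to the miR-34a libraries. Because of the centring, groups that differ fall on either side of 0 in any case. Over the members with a KRAB match the medians were 0.01, -0.10 and -0.10 in the control and 0.05, 0.11 and 0.08 with miR-34a. Over the numbered ZNF genes of other chromosomes they were 0.02, -0.06 and -0.03 against 0.02, 0.03 and 0.05. There control replicate 1 was level with miR-34a replicate 1. The same measure over all genes tested stayed between -0.003 and 0.01. Summed over the 199 genes, control replicates 1, 2 and 3 stood at 2450, 2330 and 2378 CPM and miR-34a replicates 1, 2 and 3 at 2494, 2570 and 2569 CPM. The group means were 2386 ± 60.7 and 2545 ± 44.0 CPM (SD, n = 3), a ratio of 1.07.

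The base composition of the transcripts moved with the change. The median GC content of the members' transcripts was 42.5%, beside 49.7% for protein-coding genes tested and 61.2% for the other protein-coding genes of chromosome 19. Across 13476 protein-coding genes the Spearman correlation of log2 fold change with GC content was -0.39, and across the 199 members it was -0.29. Genes share libraries and are not independent replicates, so these are descriptions. Among genes below 45% GC the median log2 fold change was 0.17 for 134 members and 0.09 for 4581 protein-coding genes. In that range 9 members were called higher and 1 lower, and 601 and 180 of the protein-coding genes. At 50% GC or more it was 0.01 for 32 members and -0.09 for 6616 protein-coding genes. There 1 member was called higher and 3 lower, and 153 and 825 of the protein-coding genes. The part of GC content in the shift was not tested.

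Members with and without a match to the KRAB A box were described apart, since KRAB is the domain that binds TRIM28. A sequence pattern can miss a box, so genes without a match may still encode a KRAB domain. A match to the KRAB A box was found in 159 predicted proteins, of which 9 rose and 1 fell, with a median log2 fold change of 0.15. Of the 40 without a match, 1 rose and 3 fell, with a median of 0.03. The median protein held 12 finger matches, and the range was 0 to 31. Genes with 5 or fewer matches had a median of -0.11 (12 genes, 2 called lower and none higher at adjusted p below 0.05 by edgeR). Those with 10 to 12 matches stood at 0.18 (49 genes), those with 13 to 15 at 0.17 (54 genes) and those with 16 or more at 0.11 (43 genes). The called shares were 6.29% with and 10% without a KRAB match, beside 12.1% of all genes tested. With 5 or fewer finger matches the share was 16.7%.

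Of the 10 genes that rose, ZNF264, a KRAB zinc finger gene with 13 finger matches, changed most. It stood at 16.1, 15.2 and 16 CPM in control replicates 1, 2 and 3 and at 22.5, 22.3 and 23.2 CPM in miR-34a replicates 1, 2 and 3, a log2 fold change of 0.52 ± 0.09 (SE; edgeR adjusted p = 0.00017). The lowest miR-34a library lay well above the highest control library. ZNF584, which encodes a KRAB box and 8 finger matches, stood at 18.6, 19.5 and 16.8 CPM in the control and at 25.6, 21.4 and 25 CPM with miR-34a (0.39 ± 0.09, edgeR adjusted p = 0.0061). ZNF791, with a KRAB box and 17 matches, stood at 32.1, 34.7 and 33.7 CPM in the control and 38.8, 41.2 and 46.0 CPM with miR-34a (0.33 ± 0.08, edgeR adjusted p = 0.0073). ZNF260, which encodes 13 fingers and no KRAB box match, stood at 28.2, 23.6 and 25.1 CPM in the control and 32.1, 31.7 and 32.6 CPM with miR-34a (0.33 ± 0.08, edgeR adjusted p = 0.010). In each of these 4 genes the groups did not overlap, and the control libraries of ZNF260 were spread more widely than its miR-34a libraries. The calls were made from the same libraries. Lack of overlap in these and the other called genes is therefore no separate support.

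The other 6 genes that rose all encode a KRAB box and lay close to the threshold, with edgeR adjusted p-values of 0.029 to 0.047. ZNF570 stood at 8.10, 6.58 and 6.68 CPM in the control and 9.14, 10.1 and 9.03 CPM with miR-34a, a log2 fold change of 0.41. ZNF283 stood at 10.1, 8.29 and 9.94 CPM in the control and 10.8, 12.4 and 14.1 CPM with miR-34a (0.40). ZNF566 stood at 8.51, 9.57 and 10.8 CPM in the control and 13, 11.4 and 13.5 CPM with miR-34a (0.39). The gaps between the groups were narrow in all 3 of these genes, where the highest control library came within 1 CPM of the lowest miR-34a library. ZNF776 stood at 15.1, 13.7 and 13.9 CPM in the control and 18.5, 16.8 and 17.4 CPM with miR-34a (0.30). ZNF254 stood at 15.6, 15.2 and 15.7 CPM in the control and 17.6, 19.6 and 19.4 CPM with miR-34a (0.29). ZNF430 stood at 19.8, 19.8 and 21.3 CPM in the control and 23.7, 26.0 and 23.6 CPM with miR-34a (0.26). None of the 6 overlapped between the groups.

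Of the 4 genes that fell, 3 encode no KRAB box match. The transcripts of these 3, ZNF580, ZNF358 and ZNF414, hold 61.7, 69.1 and 62.6% GC, beside 41.9% in ZNF700. The parts of KRAB status and GC content were not tested. ZNF580, a small protein of 172 residues, stood at 30.3, 36.5 and 35.3 CPM in the control and at 21.0, 24.4 and 22.4 CPM with miR-34a, a log2 fold change of -0.59 ± 0.09 (SE; edgeR adjusted p = 3.8e-05). All 3 miR-34a libraries lay below the lowest control library. ZNF580 shares 15.1% of its exonic length with ZNF581 on the same strand, and ZNF581 itself had a log2 fold change of -0.28 (21.7, 26.9 and 23.4 CPM against 21.2, 19.8 and 18.6 CPM; edgeR adjusted p = 0.056). ZNF581 passed without control replicate 1 (-0.34, edgeR adjusted p = 0.015) and had -0.19 without control replicate 2 (adjusted p = 0.31). How reads in the shared part were assigned is not known. ZNF358 stood at 13.5, 17.8 and 17.9 CPM in the control and 10.9, 12.9 and 13.2 CPM with miR-34a (-0.41 ± 0.12, edgeR adjusted p = 0.018). ZNF414, with 1 finger match, stood at 11.4, 13.5 and 11.6 CPM in the control and 9.06, 10.7 and 8.68 CPM with miR-34a (-0.36 ± 0.12, edgeR adjusted p = 0.044). ZNF700, the KRAB gene among them, stood at 6.22, 6.95 and 7.37 CPM in the control and 5.72, 4.93 and 4.65 CPM with miR-34a (-0.43 ± 0.14, edgeR adjusted p = 0.048). The groups did not overlap in any of the 4 genes, and the gap was narrowest in ZNF358, ZNF414 and ZNF700.

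**Figure D2:**
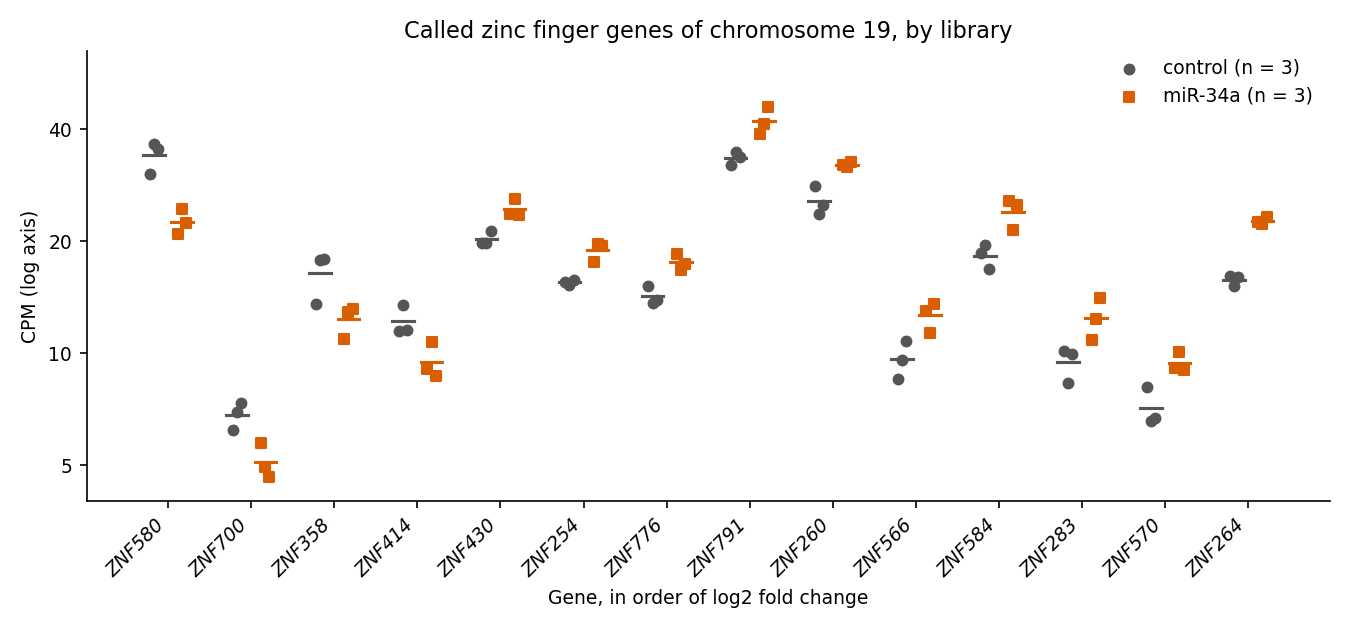
Level in CPM (log axis) of the 14 called genes in each library, with 3 control libraries (circles) and 3 miR-34a libraries (squares) per gene and a line at each group mean. The groups do not overlap in any of the 14 genes, which were called from these same libraries. The separation is widest in ZNF580 and ZNF264.

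ZNF264 and ZNF580 passed with any single library left out. ZNF584 did not pass without control replicate 3 (log2 fold change 0.34, edgeR adjusted p = 0.055), nor ZNF791 without miR-34a replicate 3 (0.26, adjusted p = 0.065), nor ZNF260 without control replicate 2 (adjusted p = 0.071) or 3 (0.052). ZNF358 lost its call on leaving out control replicate 2, control replicate 3 or the first miR-34a library (edgeR adjusted p = 0.12, 0.11 and 0.091). For ZNF414 the call was lost on leaving out either of control replicates 2 and 3 or either of miR-34a replicates 1 and 3 (edgeR adjusted p = 0.072 to 0.23). For ZNF700 and ZNF283 it was lost on leaving out any one of replicates 2 and 3 of either group (0.13 to 0.20 and 0.052 to 0.18). For ZNF566 it was lost on leaving out either of control replicates 1 and 2 or either of miR-34a replicates 1 and 3 (edgeR adjusted p = 0.080 to 0.13). ZNF776 and ZNF570 passed only without control replicate 1 (0.065 to 0.14 and 0.051 to 0.15 otherwise), ZNF254 only without miR-34a replicate 1 (0.052 to 0.17 otherwise), and ZNF430 in none of the 6 fits (0.065 to 0.22). With replicate number as a block, ZNF430, ZNF254 and ZNF776 did not pass (edgeR adjusted p = 0.075, 0.071 and 0.055). Scaling by library size alone ended the calls of ZNF700 (0.063) and ZNF414 (0.068), DESeq2's size factors that of ZNF700 (0.051), and testing all genes without a filter those of ZNF700 (0.075), ZNF414 (0.056), ZNF430 (0.058) and ZNF254 (0.060).

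The genes stood in 16 clusters when a new cluster was begun at each gap of more than 1 Mb. Of these, 5 held a single gene, and 5 clusters of 20 or more genes held 153 of the 199. The cluster at chr19:36182060-37817300 held 26 genes, of which 25 had a positive log2 fold change, 3 rose (ZNF566, ZNF260 and ZNF570) and none fell at adjusted p below 0.05 by edgeR, with a median of 0.22. ZNF793 was the exception (-0.47 ± 0.36, edgeR adjusted p = 0.47). The cluster at chr19:19668796-24129961 held 20 genes, of which 18 were positive and 2 rose (ZNF430 and ZNF254), with a median of 0.23. The median was 0.19 over the 23 genes at chr19:43525497-45076588, where ZNF283 rose, and 0.10 over the 30 genes at chr19:51571298-53580269, where no gene was called by edgeR. The called shares of these clusters, in the order given, were 11.5, 10, 4.35 and 0%, beside 12.1% of all genes tested.

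The largest cluster, 54 genes at chr19:55476332-58481230, held genes that moved both ways, with a median of 0.13. Of its genes 7.41% were called, beside 12.1% of all genes tested. Its 39 KRAB genes had a median of 0.16 and 3 of them rose (ZNF264, ZNF776 and ZNF584), while its 15 genes without a KRAB match had a median of -0.10 and 1 of them, ZNF580, fell. The first 9 genes of this cluster, from ZNF628 to ZNF444 in order of start, all lacked a KRAB match. Of these 9, 8 had a negative log2 fold change, with a median of -0.26, and ZNF580 alone passed; this stretch was picked out after its values were seen. ZNF444, which carries a SCAN domain, stood at 37.6 ± 3.95 CPM in the control and 34.9 ± 3.20 CPM with miR-34a (SD, n = 3). In other clusters the order of the medians with and without a KRAB match varied. At chr19:11483427-12640098 the median was 0.29 over 3 genes without a match and 0.12 over 12 with one. At chr19:43525497-45076588 it was -0.11 over 5 genes without a match and 0.20 over 18 with one.

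**Figure D3:**
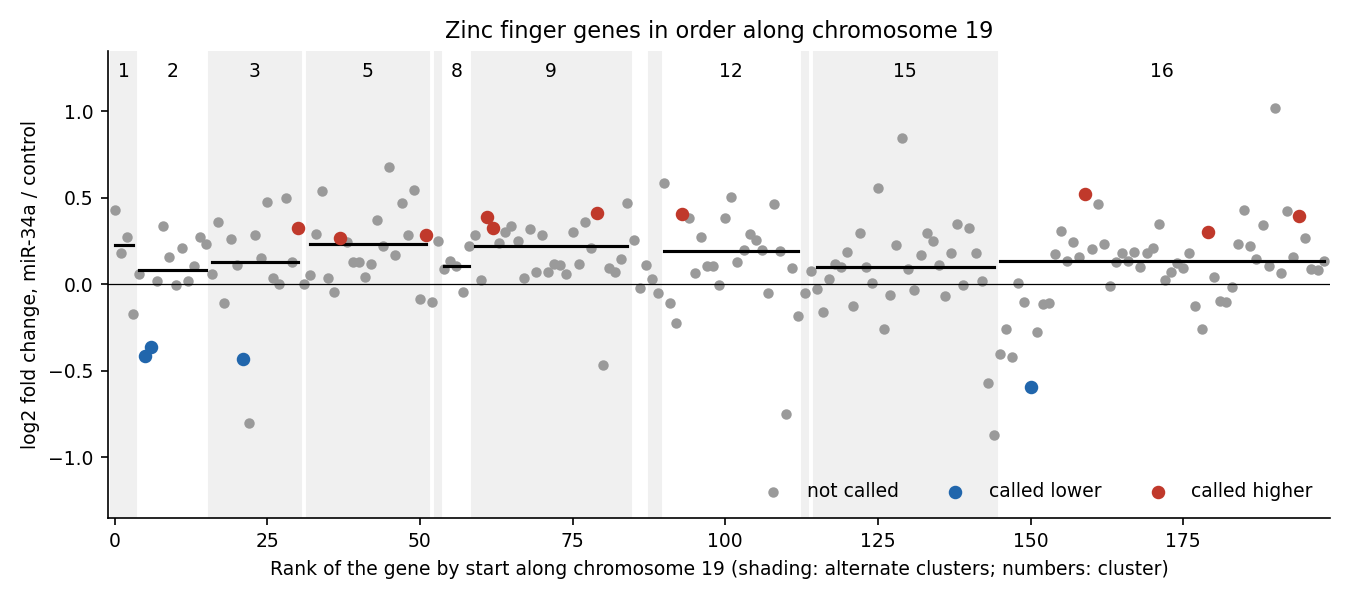
Log2 fold change of miR-34a over control (y axis) for the 199 genes in order of start along chromosome 19 (x axis, rank), with alternate clusters shaded, the clusters of 4 or more genes numbered and a black line at the median of each. In cluster 9, 25 of 26 genes lie above 0, and the first 9 genes of cluster 16 include 8 below 0.

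Most of the genes were weakly expressed, and the level set how small a change could be called. The median control level was 7.76 CPM, or 1.41 CPM per kb of exon, beside 30.5 CPM and 5.48 CPM per kb for protein-coding genes tested. ZNF146, whose protein consists of little but zinc fingers, was by far the highest, at 59.1 CPM per kb; it was followed by ZNF581 and ZNF428 (both 13.8) and ZNF580 (12.6), 3 genes whose values lay within their spread of each other. ZNF146 stood at 244, 228 and 263 CPM in the control and 257, 241 and 249 CPM with miR-34a, a log2 fold change of 0.02 with a 95% interval of -0.12 to 0.17. ZNF428 stood at 24.9 ± 5.18 CPM in the control and 21.3 ± 2.81 CPM with miR-34a (SD, n = 3), with overlap between the groups, and it shares 27.6% of its exonic length with SRRM5 on the opposite strand. Its log2 fold change was -0.22 (edgeR adjusted p = 0.25), with -0.36 and a call without control replicate 1 (adjusted p = 0.012), -0.07 without control replicate 2 and -0.12 without miR-34a replicate 1. Among the 66 members with the lowest average level none was called by edgeR (median SE 0.22 on the log2 scale), among the middle 67 there were 2 that rose and 2 that fell, and among the highest 66 there were 8 and 2 (median SE 0.10). The called shares were 0, 5.97 and 15.2%, beside 12.1% of all genes tested. Over the whole set, 52 members (26.1%, beside 24.4% of all genes tested) had an unadjusted p below 0.05, 43 of them higher and 9 lower. Of the 185 members not called, 131 had a 95% interval of the log2 fold change that stayed within a 1.5-fold change either way, and 54 had an interval that reached past it.

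**Figure D4:**
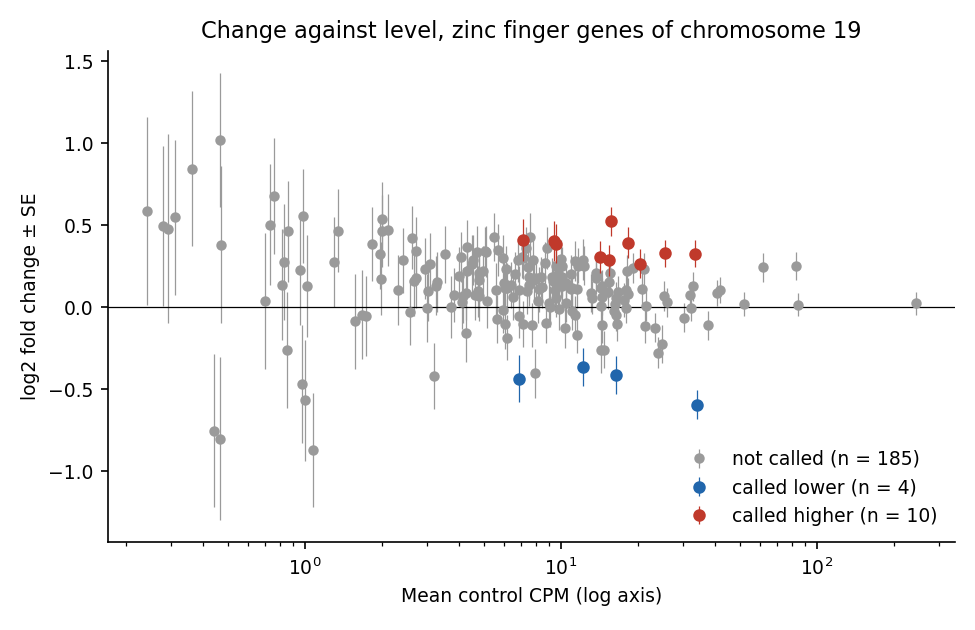
Log2 fold change of miR-34a over control with its SE (y axis) against the mean control level in CPM (x axis, log scale) for the 199 genes. The called genes lie above 6 CPM, and the widest error bars belong to the genes near or below 1 CPM.

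The count rule left out genes with few or no counts. How reads shared with a near copy were counted is not known, so few counts need not mean little RNA. Just inside it, ZNF285 had 9, 16 and 15 counts in the control and 6, 8 and 10 with miR-34a, and ZNF442 had 5, 16 and 6 against 11, 22 and 4. Just outside it, ZNF563 had 4, 4 and 5 against 2, 10 and 6 counts, and ZNF439 had 2, 2 and 5 against 2, 4 and 6. Of the 48 genes left out, 16 had no count in any library. One of these is ZNF93, known for binding L1 retrotransposons; no count allows a level of up to 0.0819 to 0.121 CPM, at 3 counts per library, for counting error only.

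None of the members named for a known role passed with all libraries kept. ZNF91, a KRAB protein that silences SVA retrotransposons, stood at 1.64, 1.22 and 1.18 CPM in the control and 1.59, 2.09 and 1.84 CPM with miR-34a (log2 fold change 0.47 ± 0.25, edgeR adjusted p = 0.27), and the groups overlapped. ZNF611 and ZNF649, which also bind retrotransposons, had log2 fold changes of 0.17 ± 0.13 and 0.03 ± 0.12. ZNF274, which brings SETDB1 to zinc finger gene clusters, had 0.11 ± 0.11, and 1.48% of its 50-base stretches occur elsewhere. ZNF331, an imprinted gene, had the lowest log2 fold change of all 199, at 0.940, 0.915 and 1.37 CPM in the control and 0.477, 0.685 and 0.595 CPM with miR-34a. The groups did not overlap, yet at this level its fold change of -0.87 ± 0.35 did not pass (edgeR adjusted p = 0.11). ZNF473, which takes part in processing histone pre-mRNAs, stood at 31.9 ± 0.407 and 33.6 ± 0.888 CPM (0.08 ± 0.08). ZNF675, which binds TRAF6, ZNF382, ZNF568 and ZNF296, a factor of early embryonic cells, had log2 fold changes of 0.28, 0.30, 0.07 and -0.18 with edgeR adjusted p-values of 0.15, 0.19, 0.84 and 0.46. ZNF675 passed without control replicate 1 (0.40, edgeR adjusted p = 0.026) and had 0.17 without miR-34a replicate 2 (adjusted p = 0.56).

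A microRNA guides Argonaute proteins to mRNAs through its seed, bases 2 to 8 from the 5′ end, and pairing works mainly in the 3′ UTR. The mature miR-34a-5p sequence, from RefSeq (GRCh38.p14), is shown with its seed in capitals.
miR-34a-5p: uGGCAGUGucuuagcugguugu
The matches searched were the 8mer CACTGCCA, the 7mer-m8 CACTGCC, the 7mer-A1 ACTGCCA and the 6mer ACTGCC, on the transcript strand, each gene taking its strongest. Of 188 members with a 3′ UTR of at least 50 nt, 16.5% held a 7mer or 8mer, beside 20.9% of 12896 genes. In the coding sequence 8.04% of the 199 members held one, beside 27.9% of 13476 genes.

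Of the 31 members with a 7mer or 8mer in the 3′ UTR, 1 rose (ZNF264) and 1 fell (ZNF358), with a median log2 fold change of 0.07; over all 2695 tested genes with such a match 125 rose and 522 fell, with a median of -0.08. None of the 9 members with an 8mer was called by edgeR, and their median was 0.07, beside -0.14 over all 675 genes with an 8mer. The 142 members with no match in the 3′ UTR had a median of 0.17, with 8 higher and 2 lower, beside 0.01 over 8907 such genes, with 660 higher and 435 lower. So within the members, too, the genes with no match had the higher median. The 16 members with a 7mer or 8mer in the coding sequence had a median of 0.11, with 2 lower (ZNF358 and ZNF414) and none higher, beside -0.03 over 3754 genes, of which 188 were called higher and 418 lower. The difference between members and other genes of the same class was not tested.

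**Figure D5:**
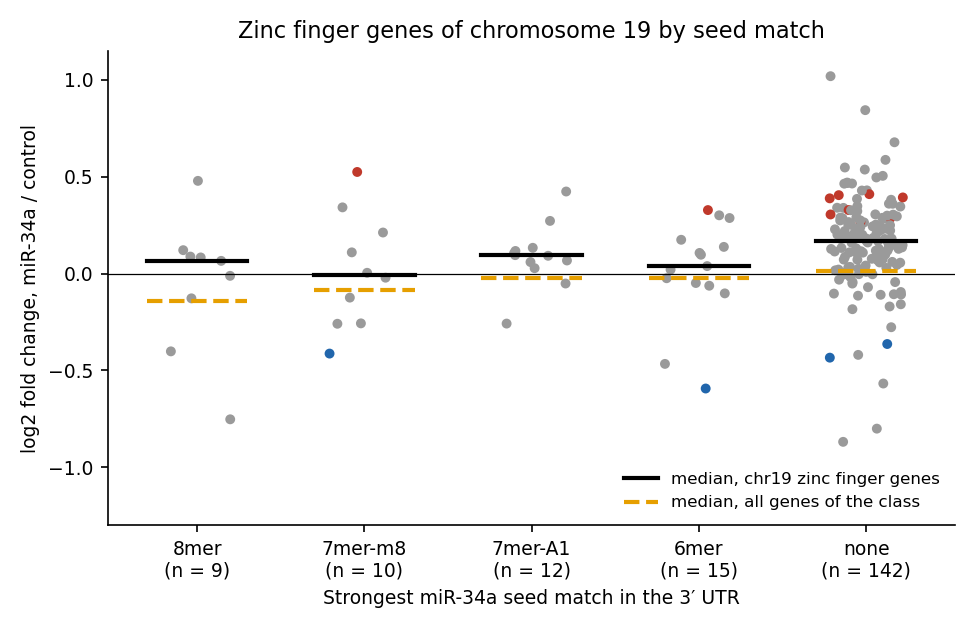
Log2 fold change of miR-34a over control (y axis) of the zinc finger genes by the class of their strongest 3′ UTR match to the miR-34a seed (x axis), with called genes in red (higher) and blue (lower), black lines at the members' medians and dashed orange lines at the medians of all tested genes of the class. Among genes with an 8mer the members' median is 0.07 and that of all genes -0.14.

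The sites of the called genes are printed with the match in capitals and the flanking bases in lower case, since genes with a match were called in both directions.
ZNF358 coding 8mer: tcctctggcctCACTGCCAccccc
ZNF358 coding 7mer-m8: agaagccgcacCACTGCCcggtg
ZNF358 3′ UTR 7mer-m8: taaaatcctccCACTGCCtccgg
ZNF414 coding 7mer-m8: atctgcgaaccCACTGCCcgccc
ZNF264 3′ UTR 7mer-m8: ccacatccaggCACTGCCccatt
The 3 matches of ZNF358, which fell, lie in its last exon at chr19:7519623-7519630, chr19:7519948-7519954 and chr19:7521014-7521020 (plus strand), the last of them 65 nt after the stop codon in a 3′ UTR of 77 nt. That of ZNF414, which fell, lies in exon 3 of 8 at chr19:8512625-8512631 (minus strand). That of ZNF264, which rose, lies 7556 nt after the stop codon in a 3′ UTR of 9865 nt, at chr19:57220537-57220543 (plus strand). ZNF580 and ZNF700, which also fell, held no 7mer or 8mer in the 3′ UTR or the coding sequence. A 6mer was the strongest 3′ UTR match of ZNF580 and also of ZNF791, which rose.

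ZNF358, ZNF274 and ZNF526 held 3 matches each, the most of any member, and of these ZNF358 alone was called. A further 8 members held 2 each and none of them was called by edgeR; ZNF296 and ZNF304 are described from this tie. ZNF274 and ZNF526 held theirs in the coding sequence, and ZNF526 stood at 16.4 ± 0.444 CPM in the control and 15.8 ± 1.08 CPM with miR-34a (SD, n = 3). ZNF296 held 2 in the coding sequence. ZNF304, a KRAB gene, held an 8mer and a 7mer-A1 in its 3′ UTR and stood at 10.6, 9.33 and 9.66 CPM in the control and 10.1, 11.2 and 8.22 CPM with miR-34a (log2 fold change -0.01, 95% interval -0.27 to 0.25). Neighbouring copies can share a site, as the pair ZNF324 and ZNF324B do in the 3′ UTR, where the 8mer sits in almost the same surroundings.
ZNF324 3′ UTR 8mer: caacacatgctCACTGCCAgctcc
ZNF324B 3′ UTR 8mer: caatgtgtgctCACTGCCAgctcc
These lie at chr19:58472787-58472794 and chr19:58457211-58457218 (plus strand), and the genes had log2 fold changes of 0.08 ± 0.09 and 0.09 ± 0.12. They also share 9.54% and 13.1% of their 50-base stretches with other loci, so their values are not independent.

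No called gene had more than 3.39% of its 50-base transcript stretches in a gene elsewhere, the share of ZNF700. ZNF430, ZNF254, ZNF283 and ZNF264 had 2.65 to 3.31%. The median member had 1.03% of its 50-base transcript stretches in a gene elsewhere, and the highest share was 33.3%, in ZNF492. None of the 29 members with 5% or more was called by edgeR, and their median log2 fold change was 0.09; among the 170 members below 5%, 10 rose and 4 fell, with a median of 0.14. Exons of 55 members overlapped another tested gene, 22 of them by more than 10%. Of these 55, 3 rose and 1 fell, or 7.27%. The called share was 8.24% among the 170 members below 5%, beside 12.1% of all genes tested. ZNF580 was the called gene with the largest overlap, and the others had 3.92% or less. ZNF417 and ZNF587, near copies with 31.0% and 18.8% of their stretches elsewhere, had log2 fold changes of 0.43 ± 0.14 and 0.23 ± 0.10 (edgeR adjusted p = 0.053 and 0.16), and reads common to both cannot be assigned.

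Genes of the proteins that KRAB domains work through were called at a share near that of all protein-coding genes. Of 47 tested genes of a list of TRIM28 partners, HP1 proteins, NuRD subunits, the HUSH complex and DNA methylation enzymes, 5 fell and 3 rose, with a median log2 fold change of 0.02. This is 17.02% called, beside 12.1% of all genes and 15.03% of protein-coding genes tested. TRIM28 itself stood at 699, 776 and 745 CPM in the control and 699, 618 and 628 CPM with miR-34a (-0.19 ± 0.07, edgeR adjusted p = 0.085), with control replicate 1 and miR-34a replicate 1 at almost the same level. SETDB1 stood at 67.6 ± 4.48 and 71.2 ± 0.764 CPM (SD, n = 3; 0.08 ± 0.07, edgeR adjusted p = 0.57).

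The partner genes that fell were the deacetylase HDAC1 (from 423 ± 15.4 to 250.4 ± 12.6 CPM), the NuRD subunits MTA2 (269 ± 6.16 to 175 ± 9.41 CPM) and MBD3 (119 ± 10.3 to 95.6 ± 8.85 CPM), the histone H3.3 chaperone DAXX (93.0 ± 5.99 to 66.4 ± 3.12 CPM) and the DNA methyltransferase DNMT3B (63.7 ± 3.19 to 54.1 ± 3.95 CPM; SD, n = 3). HDAC1 held a 7mer-m8 and MTA2 and MBD3 an 8mer in the 3′ UTR. Those that rose were ATRX, the chromatin remodeller that works with DAXX (146 ± 17 to 187 ± 17.9 CPM), the HP1 protein CBX5 (282 ± 20.7 to 348 ± 28.5 CPM) and MORC3 (45.5 ± 4.91 to 55.8 ± 6.22 CPM). MBD3 did not pass without control replicate 2 or miR-34a replicate 2 (edgeR adjusted p = 0.063 in each), CBX5 not without miR-34a replicate 3 (0.051), and MORC3 not without any one of replicates 2 and 3 of either group (0.091 to 0.17). DNMT3B lost its call without either of control replicates 2 and 3 or either of miR-34a replicates 1 and 3 (0.070 to 0.19), and also with library size only (0.062), no filter (0.061) and the replicate block (0.065). TRIM28 passed without control replicate 1 (log2 fold change -0.23, edgeR adjusted p = 0.036), without miR-34a replicate 1 (-0.25, adjusted p = 0.047) and with DESeq2 (adjusted p = 0.047). The count of partner genes called lower was 3 without control replicate 2, and the count called higher was 1 without miR-34a replicate 3.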

How the data were processed

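RNA of 6 HEK293T libraries was sequenced, 3 with the AllStars control and 3 with miR-34a. The authors deposited whole-number counts of reads for each Ensembl gene, with no normalization. The submitters' processing notes name STAR 2.7.11a, featureCounts, Subread 2.0.3, edgeR 3.42.4 and GRCh38. The annotation release is not given in the sources used here, nor are the strand setting and the treatment of multiply mapped reads; per the labels' protocols, the TruSeq v2 kit was used, which does not mark strand. Reads of near-identical copies or of overlapping genes may therefore be split or lost.

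Symbols were found for 62595 of 63140 identifiers, and biotypes and positions for 58126, in GENCODE release 29 (GRCh38). Genes passing filterByExpr (minimum count 10, minimum total 15) were scaled by TMM and tested by edgeR 4.0.16's quasi-likelihood method under R 4.3.3, with a term for group alone, over 17427 genes with Benjamini-Hochberg adjustment. CPM uses TMM library sizes; the centred log2 values add 0.1 CPM. The p-values measure the spread between these 6 libraries only. On simulated counts (17050 genes tested) the test recovered 90% of 100 genes changed 1.5-fold and 99% of 100 changed 2-fold. False calls made up 7.35% of all calls. The changed genes were drawn from all genes tested except the weakest. The median log2 CPM was 3.06 over the members and 4.02 over all genes tested, so these shares may not hold for the members.

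The transcript with the longest coding sequence gave the seed matches, the finger matches (C-x-x-C, 12 residues, H, 3 to 5 residues, H) and the KRAB A box matches. Shared sequence is the share of 50-base stretches found in transcripts of a gene at another locus.

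The members and gene lists were chosen with earlier results of these data known. Named were the called members, the 4 with the highest level per kb, genes of known role, the 2 on each side of the count rule, 5 with most 7mer or 8mer matches (3 with 3 matches and, of 8 tied at 2, the first 2 by symbol), the called partner genes, TRIM28 and SETDB1; other names were chosen after their values were seen. Alternatives were DESeq2 1.42.0, its size factors, library size only, 3 other filters, a stricter threshold, a replicate block and each library left out.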

Additional observations from a re-analysis of the deposited data

How the results depend on the processing

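Among the 199 zinc finger genes, the count called higher lay between 10 and 13 under the other scalings, filters, DESeq2 and the replicate block, and was 3 at adjusted p below 0.01. The count called lower was 2 with library size only, 2 with no filter and 1 at adjusted p below 0.01, and 3 or 4 under the others. With single libraries left out, 3 to 20 were called higher and 1 to 9 lower, and the cause was not tested. Over all genes tested 7.34 to 14.8% were called in these fits, beside 12.1% with all libraries. The median log2 fold change was 0.13 to 0.14 under the alternatives that keep all libraries and 0.11 to 0.17 with a library left out (0.17 without control replicate 1). Of the partner genes, 3 to 6 were called lower and 1 to 4 higher with a library left out.

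Same-numbered libraries did not deviate together (correlations of -0.21, -0.05 and -0.26), so the numbers do not pair them, and no library correlated best with its own number. With the replicate block 10 members were called higher and 4 lower, 11 of them among the 14 called without it, and the partner genes gave 3 and 4.

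Signs changed for genes that were not called. ZNF304 had 0.0013 with library size only and -0.12 to 0.11 with a library left out. With a library left out the log2 fold change ran from -0.026 to 0.080 for ZNF146, -0.041 to 0.11 for ZNF649, -0.0070 to 0.18 for ZNF274, -0.0042 to 0.18 for ZNF568, -0.23 to 1.09 for ZNF442 and -0.093 to 0.0071 for ZNF526. At the median SE of the 66 members with the lowest level, 0.22 on the log2 scale, most changes of the size seen in the called genes would not have been detectable.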
